A study of Mus musculus with 22 samples.

Results

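The genes described here are the type I interferon response genes of retinal microglia, the resident macrophages of the retina, taken as a list of 39 interferon-induced genes together with the transcription factors that drive them. They are a fixed list of named genes. The rule uses no measured value, but the members were chosen with earlier results of these data known. Of the 39, 38 were matched by symbol to the gene annotation (Lgals3bp2 was not), and the 38 all passed the filter on low counts, among 12415 genes tested of 35596 genes summed. The libraries were bulk SMART-Seq2 RNA-seq profiles, a full-length cDNA method for few cells, of cells sorted from retinas of 12-week-old mice that had received apoptotic neurons by intravitreal injection 24 hours before.

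The 22 libraries fell into 4 groups, and the injection was shared by them all. Wild-type mice (strain C57BL/6) gave 5 pools of phagocytic and 5 pools of non-phagocytic microglia. Mice labelled Apoe -/- (strain given only as Apoe KO), which lack apolipoprotein E, a lipid carrier that phagocytic microglia make in quantity, gave 6 pools of each sort. Cells carrying CD11b and Fcrls and lacking Ly6c were collected, and those with the Alexa488 signal of the injected neurons formed the phagocytic sort. Each library held cells of 5 to 6 retinas pooled by sex and genotype, and 100 to 500 phagocytic cells were collected per sample. The labels do not say which pools share animals across the sorts, whether the genotypes were littermates, or the sex of a pool. There was no group without injected neurons, so each contrast is between sorts or genotypes after injection.

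Type I interferons are secreted when a cell senses foreign or misplaced nucleic acid. They bind the receptor pair IFNAR1 and IFNAR2, whose kinases JAK1 and TYK2 phosphorylate STAT2, a part with IRF9 of the complex ISGF3, which binds the interferon-stimulated response element (ISRE) in the promoters of the response genes. IRF7 is itself induced and amplifies further interferon production, and USP18 damps the receptor. In microglia this programme is known from viral infection, ageing and neurodegeneration.

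The promoters of 5 members that the results turn on are given as the 200 bases before the RefSeq start (build GRCm38.p6). They show where matches to the ISRE lie in members of differing role, and the Irf7 window held none. Capitals mark matches to the ISRE core (GAAA, any 2 bases, GAAA) on either strand, and overlapping matches run together. The windows are Bst2 chr8:71537473-71537672 (minus strand), Isg15 chr4:156200819-156201018 (minus), Ifit3 chr19:34583329-34583528 (plus), Oas1a chr5:120907526-120907725 (minus) and Irf7 chr7:141266425-141266624 (minus).
Bst2: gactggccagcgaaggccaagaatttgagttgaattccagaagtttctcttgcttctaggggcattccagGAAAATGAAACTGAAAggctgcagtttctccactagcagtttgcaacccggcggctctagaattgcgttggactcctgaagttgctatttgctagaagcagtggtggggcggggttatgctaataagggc
Isg15: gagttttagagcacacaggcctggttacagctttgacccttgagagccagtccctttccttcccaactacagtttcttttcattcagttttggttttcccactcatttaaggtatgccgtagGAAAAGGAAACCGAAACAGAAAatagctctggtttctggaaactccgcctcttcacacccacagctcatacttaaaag
Ifit3: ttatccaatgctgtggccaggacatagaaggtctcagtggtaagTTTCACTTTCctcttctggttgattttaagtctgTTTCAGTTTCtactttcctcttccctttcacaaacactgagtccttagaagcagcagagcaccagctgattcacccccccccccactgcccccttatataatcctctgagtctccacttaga
Oas1a: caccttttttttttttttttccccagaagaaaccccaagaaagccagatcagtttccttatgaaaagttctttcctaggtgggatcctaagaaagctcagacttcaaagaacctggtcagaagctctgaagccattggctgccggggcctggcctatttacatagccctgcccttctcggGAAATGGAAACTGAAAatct
Irf7: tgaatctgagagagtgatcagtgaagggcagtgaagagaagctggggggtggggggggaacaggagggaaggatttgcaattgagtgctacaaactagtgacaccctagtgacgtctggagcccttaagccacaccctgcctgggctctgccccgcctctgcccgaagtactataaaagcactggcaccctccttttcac

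The runs of matches lay 130 to 115 bases before the start in Bst2, 78 to 57 in Isg15, 156 to 113 in Ifit3 (where they read on the opposite strand) and 20 to 5 in Oas1a. The Irf7 window held no such letters. In the reference table of windows from 250 bases before to 50 bases after a start, 28 of the 39 members had an entry, and 16 of the 28 held the ISRE core (57.1%). Counted by window, 17 of the members' 34 windows held it (50%), against 1131 of all 32851 windows (3.44%). A match is a description of the letters only.

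Libraries held 1131239 to 3643674 estimated reads, of which 9.13% to 51.7% fell on 12 satellite-like predicted genes. The largest shares were in Apoe-/- non-phagocytic pools 2 (51.7%) and 5 (47.6%). Apoe-/- phagocytic pools reached 36.9% and wild-type pools 28.4%. Apoe, the targeted gene, stood at 869 to 5145 CPM (reads of a gene relative to a TMM-normalized library total) in wild-type and at 7.02 to 34.9 CPM in Apoe-/- libraries. The 9 microglia markers passed the filter and summed to 5335 to 18700 CPM. Markers of border macrophages were higher in the phagocytic sort: the 6 listed genes summed to 162.5 to 440.8 CPM in wild-type phagocytic against 20.4 to 56.8 CPM in non-phagocytic pools, and to 59.6 to 190.5 against 8.56 to 43.7 CPM in Apoe-/- pools. Of the 6, 5 were tested and 5 were positive in each genotype, and Pf4 and F13a1 passed the test in each. Monocyte markers (6 of 6 tested, none at 0 throughout) summed to 125.6 to 882.5 CPM in wild-type phagocytic and 68.6 to 299.8 CPM in Apoe-/- phagocytic pools. Their part in the members' levels was not tested.

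Per unit of transcript length, the members spanned a wide range of levels. On the TPM scale (estimated transcript abundance per unit of length, scaled to the same total in each library; mean over the 22 libraries), Ifi27l2a, a small mitochondrial protein, stood at 793, Ifitm3, which blocks entry of enveloped viruses, at 769, and Bst2 (tetherin), which holds budding virus at the cell surface, at 606 TPM. A gap followed: the RNA sensor Ddx58 (RIG-I) came next at 90.4 TPM, then the ubiquitin-like modifier Isg15 at 78.8, Irf7 at 77.3, Oas1a at 57.8 and Ifit3 at 57.6 TPM. The first 3 in this order overlapped over libraries, with ranges of 146 to 1862, 174 to 1432 and 113 to 1528 TPM, and so did the 5 that followed. The lowest were Oas3 at 3.72, Ifi44 at 3.11 and Samd9l at 2.59 TPM. A library with 0 reads occurred for Oasl2, Ifit1 and Ifit3b (in each case Apoe-/- non-phagocytic pool 2) and for Cmpk2 (wild-type non-phagocytic pool 1). The 38 matched members lay on 15 chromosomes, with the 4 Ifit genes on chromosome 19 and the 5 Oas and Oasl genes on chromosome 5.

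Within a group, a few pools held the highest or lowest level of most members. In the wild type, pool 4 held the highest level of its group for 20 of 38 members among phagocytic and 31 of 38 among non-phagocytic pools, and phagocytic pool 5 held it for 14. Of the Apoe-/- phagocytic pools, pool 6 was highest for 24 and pool 2 lowest for 23 members, and of the non-phagocytic pools, pool 6 was highest for 21 and pool 2 lowest for 24. The mean log2(CPM + 1) over the members thus ran from 4.97 to 6.43 in wild-type phagocytic, 4.57 to 6.14 in wild-type non-phagocytic, 5.39 to 6.96 in Apoe-/- phagocytic and 4.49 to 6.17 in Apoe-/- non-phagocytic pools. The 4 ranges overlapped. Wild-type pool 4 also had the lowest microglia marker sums of its groups (5417 and 5335 CPM) and the highest monocyte marker sums (882.5 and 1073 CPM), and Apoe-/- phagocytic pools 5 and 6 had the lowest microglia sums of theirs (5485 and 6357 CPM). In Apoe-/- non-phagocytic cells the order was the other way, since pool 2, lowest for 24 of 38 members, had the lowest microglia sum of its group (6856 CPM). Ddx3y and Eif2s3y, which lie on the Y chromosome, summed to at most 2.7 CPM in wild-type pool 5 and Apoe-/- pools 4 to 6 of each sort, and between 43.7 and 99.6 CPM in the rest, so that wild-type groups had 1 such pool of 5 and Apoe-/- groups 3 of 6. Apoe-/- phagocytic pools 4 to 6 had 1256371, 1131239 and 1355396 estimated reads, against 3643674, 2265592 and 1642432 in pools 1 to 3. Among Apoe-/- non-phagocytic pools, pool 6, highest for 21 members, had the most reads (3130154). The part of these differences in the members' levels was not tested.

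**Figure D1:**
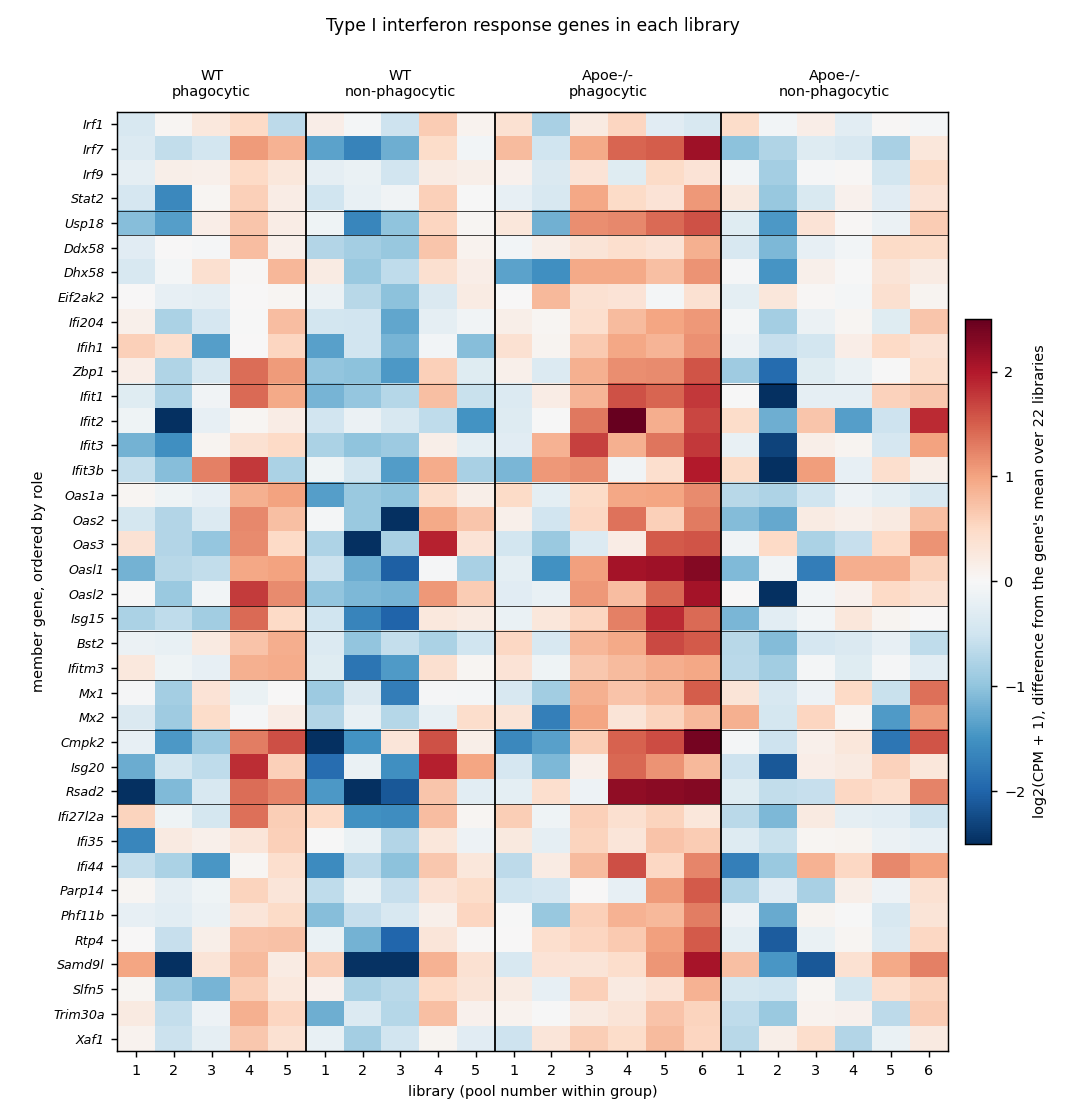
Level of the 38 members (rows, ordered by role) in each of the 22 libraries (columns, numbered by pool), as log2(CPM + 1) minus the gene's mean over the libraries, with red above and blue below that mean. Columns such as wild-type pool 4 and Apoe-/- phagocytic pool 6 are red for most members, and Apoe-/- non-phagocytic pool 2 is blue for most.

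**Figure D2:**
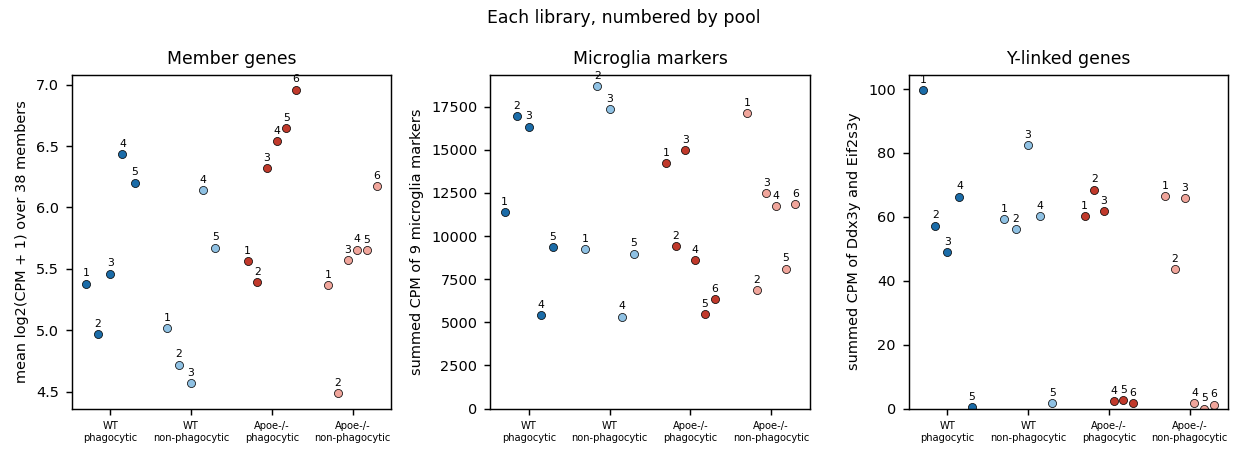
Each library as a point, numbered by pool, with the mean log2(CPM + 1) of the 38 members, the summed CPM of 9 microglia markers and the summed CPM of Ddx3y and Eif2s3y in the 3 panels. The member means of the groups overlap, and the Apoe-/- phagocytic pools run from 5.39 to 6.96.

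The first question was whether loss of Apoe changed the programme in phagocytic cells. No member passed the test: 0 of 38 had an adjusted p under 0.05 by the quasi-likelihood test of edgeR (Benjamini-Hochberg adjustment over all genes), where 0.0322% of all genes tested passed. DESeq2, and limma on the FPKM values, also called 0 members. Of the estimates, 36 of 38 lay above 0, with a median log2 fold change of 0.48 in Apoe-/- over wild-type cells, where the median of all genes tested was -0.00. At an unadjusted p under 0.05, 8 members were higher (2.43% of all genes were) and 0 lower. In bulk RNA, a change in the make-up of the sorted cells and a change of RNA per cell cannot be told apart. In the same contrast 1 of 9 microglia markers had a positive estimate (median -0.29), and 0 of 6 monocyte markers did (median -1.77, 3 of them lower at an unadjusted p under 0.05). The 4 rod photoreceptor markers were positive in 4 of 4 cases (median 0.66), and summed to 884.1 to 3995 CPM in wild-type and 1336 to 6630 CPM in Apoe-/- phagocytic pools. None of these markers passed the test, and their part in the members' estimates was not tested.

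The median for phagocytic cells depended on the pools. It was 0.27 without Apoe-/- pool 6 and 0.71 without wild-type pool 4, and 0.32 with Y-linked reads as a covariate (33 of 38 positive). Within the pools holding Y-linked reads (3 Apoe-/-, 4 wild-type) it was 0.13, with 30 of 38 positive. Within those without (3 against 1) it was 0.45, with 33 positive. These within-pool medians are differences of mean log2(CPM + 1) and carry no test.

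By role, the IFIT genes, which bind viral RNA and block its translation, had a median of 0.98 over 4 members in this contrast, the highest of the roles with more than 1 member. Ifit3 stood at 35.9, 28.3, 87.0, 108 and 119 CPM in wild-type phagocytic pools 1 to 5, and at 68.6, 184 and 284 CPM (lowest, median and highest) in the Apoe-/- ones. The 2 groups overlapped, since Apoe-/- pool 1 lay below 3 wild-type pools, and the other 5 Apoe-/- pools lay above each wild-type pool. The log2 fold change was 1.34 ± 0.43 (SE; adjusted p = 0.486). Ifit3 shares 61.8% of its 31-base words with other genes, chiefly its neighbour Ifit3b, so the split of reads between them is uncertain. Ifit3b itself stood at 0.30 ± 0.62.

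Ifit2 shares no 31-base word with another gene. In wild-type phagocytic pools it was at 23.0, 1.93, 21.4, 25.7 and 28.4 CPM, against 19.8, 55.6 and 192 CPM as the lowest, median and highest of the Apoe-/- pools. The wild-type spread was set by pool 2 and the Apoe-/- spread by pool 4, and the groups overlapped. The log2 fold change was 1.82 ± 0.60 (adjusted p = 0.519). Without a filter on low counts the adjusted p of Ifit2 was 0.00436 (0.00436 to 0.811 over 11 alternatives) and that of Ifit3 0.00967 (0.00967 to 0.759), and these were the only member calls in any alternative for this contrast.

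Usp18, the inhibitor that acts at the receptor, stood at 24.2, 19.3, 58.7, 84.7 and 59.1 CPM in wild-type and at 22.1, 119 and 159 CPM (lowest, median, highest) in Apoe-/- phagocytic pools. In 4 of the 6 Apoe-/- pools it was above each wild-type pool, while pool 2 lay among the lowest wild-type values. Its log2 fold change was 1.07 ± 0.44 (adjusted p = 0.694). Irf7 stood at 87.8, 72.1, 80.2, 235 and 205 CPM in wild-type phagocytic pools, so that pools 4 and 5 were high and the others low. The Apoe-/- pools ran from 78.2 through a median of 262 to 485 CPM and overlapped them, with 0.97 ± 0.41 (adjusted p = 0.711). Exons of Irf7 overlap those of Phrf1 on the opposite strand, which hold 0.361% of the 31-base words of Irf7. Reads of the 2 genes cannot be told apart there without a stated strand setting.

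The other transcription factors had smaller estimates. Stat2, the ISGF3 subunit that carries its activation domain, was at 51.1, 21.9, 71.2, 105 and 79.1 CPM in wild-type and at 52.3, 92.6 and 147 CPM in Apoe-/- phagocytic pools (0.56 ± 0.32). Irf9, the DNA-binding subunit, was at 70.3, 91.0, 90, 116 and 99.9 CPM against 64.2, 96.7 and 115 CPM (-0.04 ± 0.22), and Irf1, a factor shared with the type II response, had 0.01 ± 0.25. For Irf9 the 95% interval ran from -0.47 to 0.38. Irf9 shares exonic sequence with its neighbour Rnf31 (1.69% of its 31-base words, and 4.66% with any other gene), which adds to its uncertainty.

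Among effectors with an antiviral role, Isg15 stood at 24.6, 27.7, 23.2, 118 and 61.7 CPM in wild-type and at 38.5, 84.0 and 161 CPM in Apoe-/- phagocytic pools (0.80 ± 0.45). Wild-type pools 1 to 3 lay below each Apoe-/- pool, and pools 4 and 5 within their range. Rsad2 (viperin), which makes a chain-terminating nucleotide, varied most among these, from 6.64, 21.6 and 35.6 CPM in wild-type pools 1 to 3 to 127 and 113 CPM in pools 4 and 5. Apoe-/- pools ran from 39.6 through 144 to 236 CPM (1.19 ± 0.64). Oasl1, an OAS-like protein that lacks synthetase activity, stood at 56.1 ± 39.3 CPM (SD, n = 5) in wild-type and 139 ± 98.9 CPM (n = 6) in Apoe-/- phagocytic cells (1.3 ± 0.57, adjusted p = 0.740). The related Oasl2, at 73.0, 38, 69.5, 249 and 168 CPM in wild-type and 60.3, 141 and 314 CPM in Apoe-/- pools, had 0.35 ± 0.59. The synthetase gene Oas1a, whose product makes the 2-5A signal that activates RNase L, had 0.29 ± 0.30.

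Of the 3 most abundant members, Bst2 was at 0.61 ± 0.28 (adjusted p = 0.740), Ifitm3 at 0.20 ± 0.31 and Ifi27l2a at -0.13 ± 0.35. Of the 6 sensors, all 6 estimates were positive, with a median of 0.40 and a range of 0.21 to 0.61. Eif2ak2 (PKR), the kinase that halts translation on double-stranded RNA, stood at 97.6, 83.3, 82.7, 97.5 and 99.5 CPM in wild-type and at 93.7, 124 and 171 CPM in Apoe-/- phagocytic pools (0.41 ± 0.20, adjusted p = 0.749), with 4 of 6 Apoe-/- pools above the wild-type range. The cytosolic DNA-binding protein Ifi204 had 0.61 ± 0.28 (adjusted p = 0.740), and it shares 34.3% of its 31-base words with other genes, chiefly Ifi211.

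In non-phagocytic cells, again 0 of 38 members passed edgeR's test (0.0161% of all genes did), and 0 did so in each of the 12 alternatives, DESeq2 and limma included. Estimates were positive for 27 of 38 members, with a median of 0.13 against -0.00 for all genes, and 3 members were higher at an unadjusted p under 0.05 (1.78% of all genes) and 0 lower. The median was 0.48 without wild-type non-phagocytic pool 4 and 0.02 without pool 3, and with Y-linked reads as a covariate it was -0.08, with 16 of 38 positive. Within the pools holding Y-linked reads it was 0.01, with 19 of 38 positive, and within those without (3 against 1) 0.02, with 21 positive. Microglia markers were positive in 3 of 9 cases (median -0.03), monocyte markers in 1 of 6 (-1.13) and rod markers in 4 of 4 (0.54), and 0 of them passed the test.

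The 3 members of lowest p were 2 sensors and a GTPase. Ifih1 (MDA5), which senses long double-stranded RNA, stood at 14.8, 28.0, 17.1, 37.4 and 18.2 CPM in wild-type and at 26.0, 40.3 and 56.0 CPM in Apoe-/- non-phagocytic pools (0.80 ± 0.32, adjusted p = 0.999). Its groups overlapped, with 3 of 6 Apoe-/- pools above each wild-type pool. Eif2ak2 was at 87.4, 59.1, 47.0, 75.4 and 111 CPM against 81.7, 100.1 and 128 CPM (0.45 ± 0.20, adjusted p = 0.999). Mx1, listed as a GTPase, was at 24.7, 36.3, 13.4, 46.1 and 45.5 CPM against 31.4, 50.8 and 124 CPM (0.86 ± 0.39, adjusted p = 0.999), where pool 6 alone exceeded 66.2 CPM. In Apoe-/- phagocytic cells Mx1 was at 25.4, 81.0 and 135 CPM, against 45.7, 25.4, 59.6, 41.9 and 47.1 CPM in the wild type (0.75 ± 0.39).

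The members with the largest estimates in phagocytic cells had varied ones here. In the non-phagocytic sort Ifit2 had 1.07 ± 0.60, Oasl1 1.03 ± 0.58, Rsad2 0.97 ± 0.66 and Ifi44 0.88 ± 0.68, and Ifit3 had 0.51 ± 0.42. Usp18 had 0.26 ± 0.44, Irf7 0.10 ± 0.41 and Bst2 0.09 ± 0.27. The members with no overlap between genotypes were 0 in each sort, where 0.298% of all genes lay wholly higher in the Apoe-/- pools of the phagocytic and 0.105% in those of the non-phagocytic sort.

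**Figure D3:**
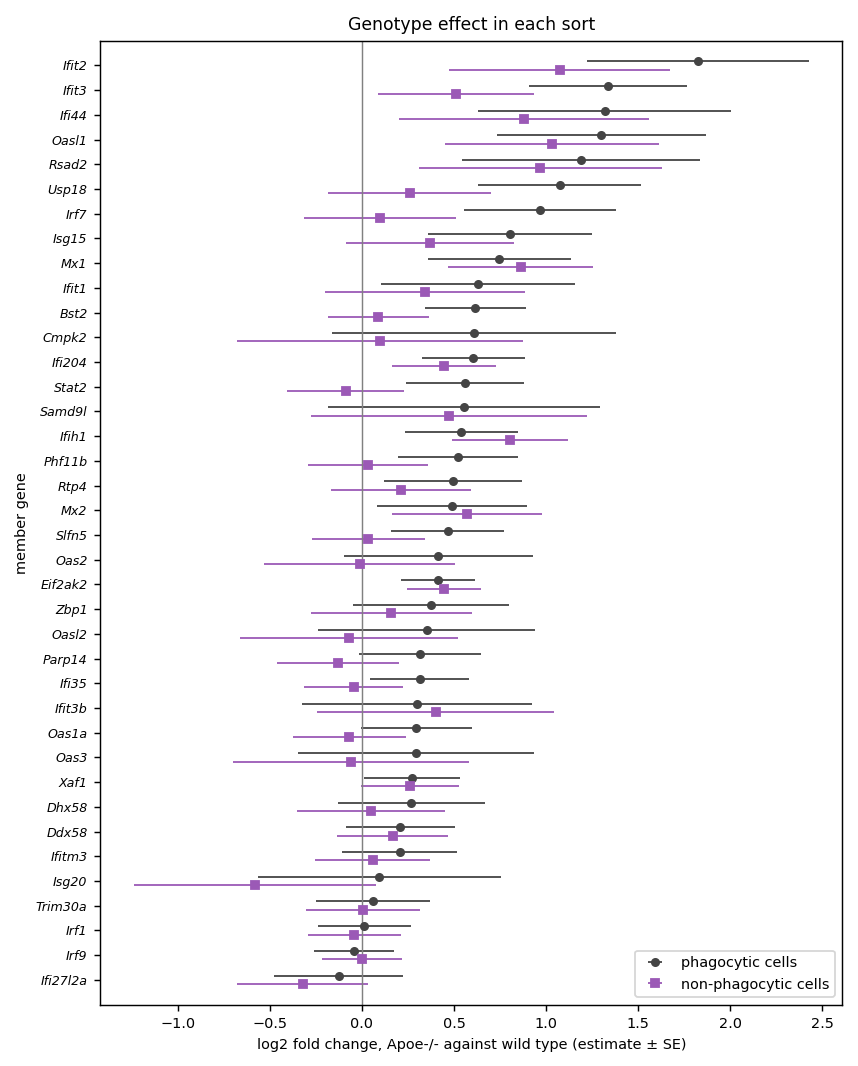
Log2 fold change of each of the 38 members, Apoe-/- against wild type, as estimate ± SE from edgeR, in phagocytic (black circles) and non-phagocytic cells (purple squares), ordered by the phagocytic estimate. In phagocytic cells 36 of 38 points lie above 0 and in non-phagocytic cells 27 of 38, and no point passed the test.

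The second comparison was of phagocytic with non-phagocytic cells within a genotype. The comparisons with genotype share their groups with it and are not independent of it. In wild-type cells 0 of 38 members passed edgeR's test (0.209% of all genes did), and DESeq2 and limma also called 0. Over 11 alternatives the members called ran from 0 to 4, and all genes called from 18 to 135. The 4 came with a replicate block, which takes equal pool numbers as shared pools, a match the labels do not give. Positive estimates numbered 32 of 38, with a median of 0.37 where all genes had -0.01. At an unadjusted p under 0.05, 5 members were higher (4.6% of all genes) and 0 lower. The median was 0.21 without phagocytic pool 4 and 0.71 without non-phagocytic pool 4, and 0.53 within the 4 pools of each sort that held Y-linked reads (33 of 38 positive) and 0.49 in the 1 pool of each that did not (30 positive).

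In Apoe-/- cells 1 of 38 members, Bst2, passed (0.467% of all genes did). Over 12 alternatives the members called ran from 1 to 9, and all genes called from 16 to 255. The 9 came with the replicate block. Positive estimates numbered 37 of 38, with a median of 0.69 where all genes had -0.02. At an unadjusted p under 0.05, 17 members were higher (5.49% of all genes) and 0 lower. The median lay between 0.53 and 0.79 when any 1 pool was left out. Within pools holding Y-linked reads (3 of each sort) it was 0.57, with 32 positive, and within those without (3 of each) 0.76, with 38 positive. Leaving out Apoe-/- phagocytic pool 2 raised the calls to 3, with Irf7 and Oas1a beside Bst2. Of the 9 microglia markers, 2 had a positive estimate in this contrast (median -0.32), against 4 of 9 in the wild type (-0.07). In either, 0 passed, and 2 were lower at an unadjusted p under 0.05 in Apoe-/- cells. The 5 border macrophage markers tested were positive, with medians of 2.76 in Apoe-/- and 2.47 in wild-type cells, and 2 passed in each. Dendritic cell markers were positive in 0 of 4 cases in each (-1.04 and -1.67). Here too, cell make-up and RNA per cell cannot be told apart.

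Bst2 RNA was higher on average in the phagocytic than in the non-phagocytic Apoe-/- pools. The gene lies at chr8:71534255-71537456 (GRCm38, minus strand), and its transcripts share no 31-base word with another gene. Non-phagocytic Apoe-/- pools were at 171, 253 and 313 CPM (lowest, median and highest) and phagocytic ones at 274, 676 and 1146 CPM. The groups met at phagocytic pool 2, whose 274 CPM lay below 2 non-phagocytic pools, while the other 5 lay above them all. The difference was 2.89-fold, a log2 fold change of 1.53 ± 0.27 (adjusted p = 0.00624), and the call was kept in 12 of 12 alternatives and in 12 of 12 fits that left out a pool, with adjusted p up to 0.0487.

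In the wild type Bst2 stood at 329.5, 319, 424, 599.7 and 687 CPM in phagocytic and at 285, 184, 239.7, 210.3 and 256 CPM in non-phagocytic pools. The groups did not overlap, and Bst2 was the only member of which this was true (1.51% of all genes lay wholly higher in wild-type phagocytic pools). The log2 fold change was 1.01 ± 0.29 (2.01-fold, adjusted p = 0.190). Bst2 passed here in 2 of 11 alternatives, with adjusted p from 0.0265 to 0.842. In Apoe-/- cells, 0 members and 0.524% of all genes were wholly higher. The Apoe-/- minus wild-type difference in the sort effect was, for Bst2, 0.53 ± 0.39, with a 95% interval of -0.23 to 1.28 (adjusted p = 1.00).

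Irf7 followed Bst2 in Apoe-/- cells, at 53.9, 74.7 and 136 CPM in non-phagocytic against 78.2, 262 and 485 CPM in phagocytic pools. Here too phagocytic pool 2 lay within the non-phagocytic range and the other 5 above it. The log2 fold change was 1.69 ± 0.40 and the adjusted p 0.0506. This p was on either side of the threshold by setting, under it in 7 of 12 alternatives. In the wild type, Irf7 was at 43.7, 34.4, 47.3, 154 and 106 CPM in non-phagocytic pools against the phagocytic levels above, with 0.82 ± 0.43 (adjusted p = 0.683).

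Oas1a stood at 59.7, 74.2 and 93.7 CPM in Apoe-/- non-phagocytic and at 86.3, 172 and 232 CPM in phagocytic pools (1.16 ± 0.29, adjusted p = 0.0815). In the wild type it was at 38.8, 53.5, 50.7, 138 and 113 CPM against 106, 94.3, 87.9, 190.4 and 205 CPM (0.79 ± 0.32, adjusted p = 0.522). Non-phagocytic pools 4 and 5 of the wild type were thus above its phagocytic pools 1 to 3. The gene shares 68.8% of its 31-base words with other genes, chiefly Oas1g, so its count is uncertain. It passed in 6 of 12 alternatives in Apoe-/- cells and in 1 of 11 in the wild type.

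Ifitm3 was at 318, 111, 148, 519 and 409 CPM in wild-type non-phagocytic and 476, 365, 343, 734 and 751 CPM in phagocytic pools (0.83 ± 0.33, adjusted p = 0.507). In Apoe-/- cells it ran 215, 325 and 385 CPM against 367, 659 and 770.1 CPM (0.97 ± 0.30, adjusted p = 0.184), with phagocytic pool 2 alone inside the non-phagocytic range. Of the 31-base words of Ifitm3, 20.5% are shared with other genes. Ifitm3 passed in 3 of 12 alternatives in Apoe-/- cells and in 1 of 11 in the wild type. Ifi27l2a was at 333, 81.1, 79.0, 401 and 241 CPM against 344, 218, 172, 611 and 358 CPM in the wild type (0.59 ± 0.37), a spread as wide within a sort as between sorts. In Apoe-/- cells it was at 107, 179 and 274 CPM against 217, 328 and 358 CPM (0.78 ± 0.34, adjusted p = 0.427).

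**Figure D4:**
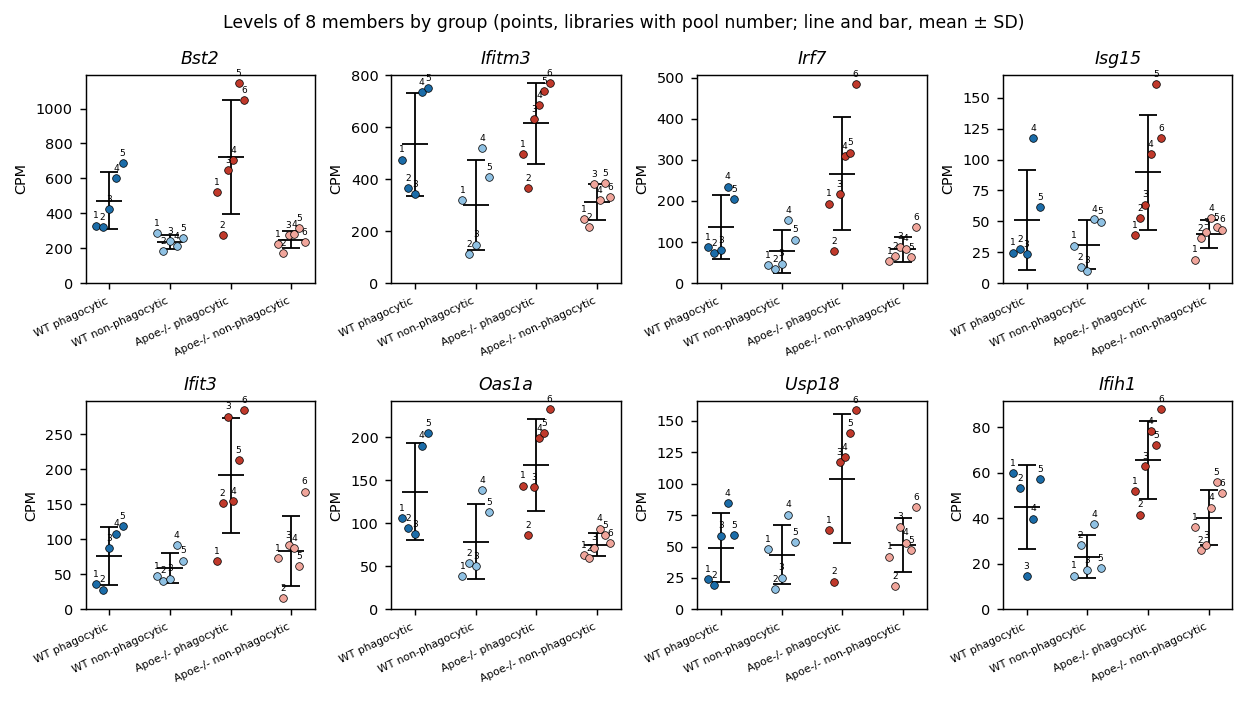
CPM of 8 members in each library (points, numbered by pool) of the 4 groups, with the group mean and SD as line and bars, on linear axes from 0. For Bst2 the 5 wild-type phagocytic pools (319 to 687 CPM) lie above the 5 non-phagocytic ones (184 to 285 CPM), and in Apoe-/- cells the ranges meet at phagocytic pool 2.

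Of the remaining effectors, Ifit3 in Apoe-/- cells had overlapping groups: non-phagocytic pools were at 16.0, 80.4 and 168 CPM and phagocytic pools, given above, began at 68.6 CPM (1.18 ± 0.40, adjusted p = 0.250). Wild-type non-phagocytic Ifit3 was at 47.9, 41.1, 44.0, 92.2 and 69.8 CPM (0.36 ± 0.44 for the sort). Isg15 was at 19.1, 42.4 and 52.7 CPM in Apoe-/- non-phagocytic pools (1.16 ± 0.43, adjusted p = 0.321) and at 30.3, 13.1, 10.1, 52.0 and 49.8 CPM in wild-type ones (0.72 ± 0.47). Zbp1, a sensor of left-handed nucleic acid, had 1.20 ± 0.41 in Apoe-/- (adjusted p = 0.254) and 0.98 ± 0.45 in wild-type cells. Ifih1 was at 59.7, 53.1, 14.6, 39.8 and 57.3 CPM in wild-type phagocytic pools, where pool 3 fell within the non-phagocytic range (0.96 ± 0.33, adjusted p = 0.370), and had 0.69 ± 0.29 in Apoe-/- cells, where phagocytic pools ran 41.5, 67.5 and 87.8 CPM.

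Members of the amplifying and effector arms not yet given by sort had wide errors. Usp18 was at 47.9, 16.1, 25.4, 75.4 and 53.7 CPM in wild-type non-phagocytic and at 18.5, 50.2 and 81.2 CPM in Apoe-/- non-phagocytic pools, with a sort effect of 0.18 ± 0.46 in the wild type and 0.99 ± 0.42 in Apoe-/- cells (adjusted p = 0.410). Rsad2 was at 16.9, 5.61, 10.1, 77.0 and 39 CPM and at 30.2, 50.8 and 112 CPM in these groups, with 1.04 ± 0.68 and 1.26 ± 0.61. Its 3 highest Apoe-/- phagocytic pools were pools 4 to 6, which had near 0 Y-linked reads, and the other 3 lay inside the non-phagocytic range. Oasl2 was at 36.6, 32.9, 32.1, 156 and 115 CPM and at 0, 76.2 and 103 CPM (0.68 ± 0.62 and 1.11 ± 0.57). Ifit2 was at 17.6, 22.4, 18.6, 15.7 and 8.23 CPM and at 9.01, 25.9 and 93.1 CPM (0.27 ± 0.62 and 1.02 ± 0.55).

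The 10 other effectors, a mixed set without a single biochemical role, had positive estimates for the sort in 10 of 10 cases in Apoe-/- cells, with a median of 0.53, and in 8 of 10 in the wild type, with a median of 0.31. Rtp4, a transporter-like protein induced by interferon, stood at 45.9 ± 20.8 CPM in Apoe-/- non-phagocytic and 91.4 ± 36.0 CPM in phagocytic cells (SD, n = 6 each; 0.97 ± 0.36, adjusted p = 0.325). Xaf1, a pro-apoptotic antagonist of XIAP, was at 53.5 ± 17.5 and 75.1 ± 20.1 CPM (0.48 ± 0.25). Phf11b was at 44.7 ± 14.6 and 75.4 ± 34.0 CPM (0.73 ± 0.31), and it shares 62.9% of its 31-base words with other genes, chiefly Phf11a. Between genotypes these 3 had 0.50 ± 0.38, 0.27 ± 0.26 and 0.52 ± 0.33 in phagocytic cells. The rest of the set ran from -0.13 (Ifi27l2a) to 1.32 ± 0.69 (Ifi44) in that contrast. Ifi44 had the lowest TPM of the members but for Samd9l.

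Other members had estimates nearer 0. Mx1 and Mx2 had 0.29 ± 0.37 and 0.07 ± 0.39 for the sort in Apoe-/- cells, Irf9 had 0.22 ± 0.21 and Eif2ak2 0.25 ± 0.19. Irf1, at 58.4 ± 10.5 CPM (SD, n = 6) in non-phagocytic and 56.5 ± 19.7 CPM (n = 6) in phagocytic Apoe-/- cells, was the single member with a negative estimate there (-0.04 ± 0.24). Median estimates by role in Apoe-/- cells were 1.25 for the 2 membrane restriction genes, 1.11 for the 5 Oas and Oasl genes, 1.08 for the 4 IFIT genes, 0.59 for the 6 sensors and 0.39 for the 4 transcription factors. No difference between roles was tested.

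**Figure D5:**
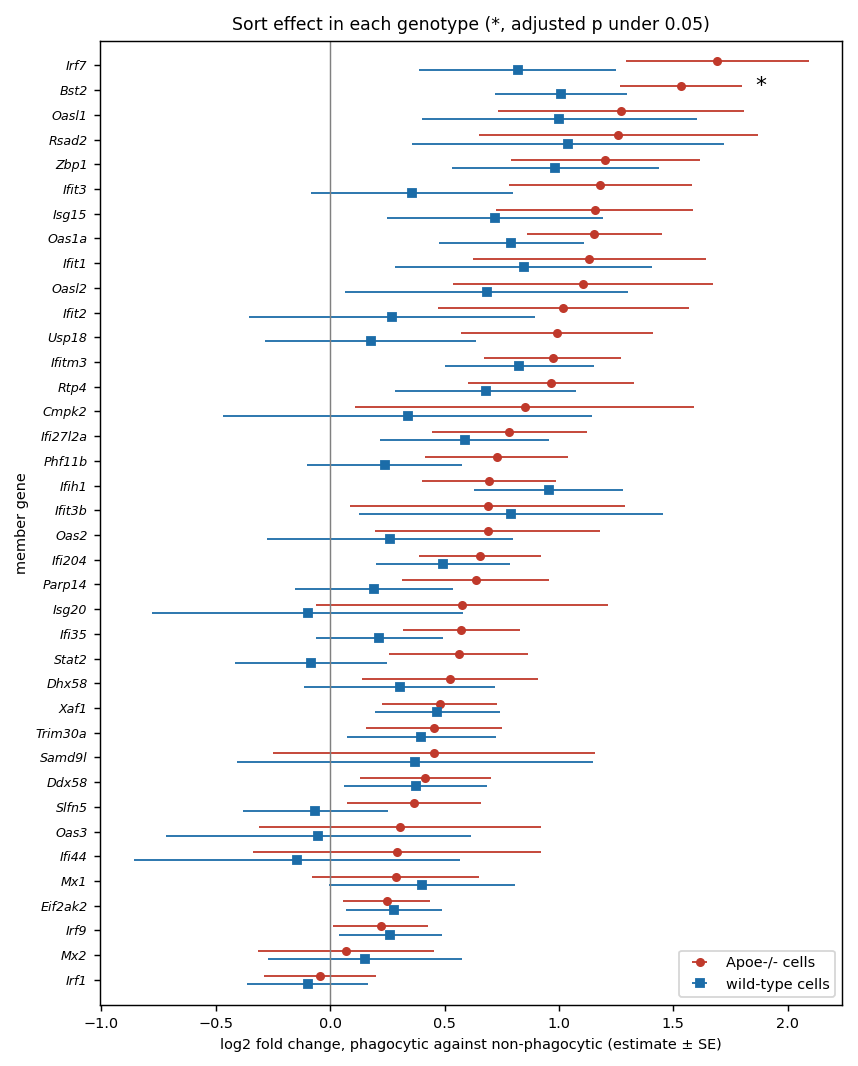
Log2 fold change of each of the 38 members, phagocytic against non-phagocytic, as estimate ± SE from edgeR, in Apoe-/- (red circles) and wild-type cells (blue squares), ordered by the Apoe-/- estimate. Bst2 in Apoe-/- cells, marked by an asterisk, is the point with an adjusted p under 0.05, and 37 of 38 Apoe-/- points and 32 of 38 wild-type points lie above 0.

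Whether the sort effect differed by genotype was tested as an interaction. By edgeR 0 of 38 members passed (0% of all genes did), 0 at an unadjusted p under 0.05 (1.12% of all genes were higher by that measure), and 0 in each of 11 alternatives. The estimates were positive for 32 of 38 members, with a median of 0.29 where all genes had -0.01, and the median ran from -0.03 without wild-type non-phagocytic pool 4 (17 of 38 positive) to 0.56. The members of lowest p were Irf7 (0.87 ± 0.58, 95% interval -0.26 to 2.01), Stat2 (0.65 ± 0.45, -0.24 to 1.53) and Ifit3 (0.82 ± 0.59, -0.34 to 1.99). For Stat2 the sort effect was -0.09 ± 0.33 in the wild type, where non-phagocytic pools stood at 48.6, 60.9, 64.9, 104 and 68.5 CPM, and 0.56 ± 0.30 in Apoe-/- cells, where they ran 35.3, 65.7 and 87.3 CPM. An effect of the sort that is larger in Apoe-/- cells was therefore not shown for any member.

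The rest of the pathway was read from lists of 154 genes, of which 151 matched and 120 were tested. Of these, 0 passed the test in any of the 5 comparisons. Positive estimates numbered 77 of 120 for genotype in phagocytic cells (median 0.13), 65 in non-phagocytic cells (0.06), 80 for the sort in the wild type (0.16) and 87 for the sort in Apoe-/- cells (0.32). The 61 other interferon-stimulated genes tested had 46, 36, 41 and 49 positive estimates in these comparisons, with medians of 0.29, 0.15, 0.24 and 0.45. The 22 tested genes weighted to type II interferon had 13, 15, 18 and 15, with medians of 0.05, 0.11, 0.24 and 0.29. These lists were not compared with each other by a test.

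The ligands were nearly absent from the libraries. Of 20 type I and III interferon genes and Ifng, 0 passed the filter and the highest count of any in a library was 10 reads (Ifna2 and Ifnz). Ifna1, Ifna11, Ifna12 and Ifna14 had 0 reads in all 22 libraries. Ifnb1, the interferon made first on nucleic acid sensing, had 7 reads at most, in an Apoe-/- phagocytic pool, and 0 reads in 5 of 6 pools of that group, 4 of 6 Apoe-/- non-phagocytic, 3 of 5 wild-type phagocytic and 4 of 5 wild-type non-phagocytic pools. Plasmacytoid dendritic cells are known as strong interferon producers; the 5 listed markers, of which Irf8 and Tcf4 are also expressed by microglia, summed to 246.2 to 498.7 CPM over all libraries, and 4 were tested and 0 passed.

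The receptor and its kinases were well measured and showed no call. Ifnar1 stood at 121 ± 36.1 CPM in wild-type non-phagocytic and 158.5 ± 21.5 CPM in phagocytic cells (SD, n = 5 each; 0.39 ± 0.22), and at 103 ± 22.9 and 146 ± 36.0 CPM in Apoe-/- cells (n = 6 each; 0.50 ± 0.20, adjusted p = 0.389). Ifnar2 was between 149 and 175 CPM on average in each of the 4 groups. Jak1 had 0.27 ± 0.21 and Tyk2 0.08 ± 0.26 for the sort in Apoe-/- cells.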

How the data were processed

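Bulk RNA-seq of 22 pools of sorted retinal microglia was analysed from the authors' deposited tables. The deposited files list 116248 transcripts per library, each with an estimated count, a TPM value and its lengths, per the file headers. A further deposited table gives FPKM by gene, limited by its header to values above 5, and served only an alternative test. Salmon 1.4.0, R 4.0.3, DESeq2 1.30.1 and mm10 are named without roles per the submitters' processing notes. As to strand setting and trimming, these were not given in the sources used here.

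Transcripts were matched to GENCODE release M21 (GRCm38, the same build as mm10), and 176 did not match (0.118% to 0.262% of reads) and were left out. Estimated counts were summed per gene and rounded. edgeR 4.0.16 in R 4.3.3 fitted 4 groups in 1 quasi-likelihood model (TMM, filterByExpr by group, no covariate), with Benjamini-Hochberg adjustment over the 12415 genes tested, a threshold of 0.05 and a common biological coefficient of variation of 0.426. The 5 contrasts were genotype in each sort, sort in each genotype and their interaction. Levels are CPM on TMM-scaled library sizes, and medians over members carry no test. The 95% intervals use a normal approximation and are somewhat narrower than the quasi-likelihood p-values imply. P-values measure the spread between pools, with each library taken as independent. If same-numbered pools of both sorts share retinas, the p-values for the sort ignore that pairing.

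In all, 12 alternatives and the omission of each library were tried, among them DESeq2 1.42.0 and limma 3.58.1 on log2(FPKM + 1). The fits were checked on simulated data. No 2 libraries of a group agreed within sampling noise (chi-square per degree of freedom 6.43 to 57.8). Values by library (lowest, median and highest for groups of 6) are given for members called in a comparison, the 3 of smallest p in each comparison, the 3 of highest TPM, and Irf7, Stat2, Irf9, Ifih1, Isg15, Ifit3, Oasl2, Rsad2 and Usp18 by role. Promoters are from RefSeq (GRCm38.p6), and 31-base words were compared between the transcripts of all genes. The members and the lists of pathway and marker genes were chosen with earlier results of these data known.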

Additional observations from a re-analysis of the deposited data

Results flagged for a closer look

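Of 64 sets of values (16 members in 4 groups), 3 held a library set apart from the rest of its group by a gap wider than Dixon's 95% critical value (0.71 for 5 and 0.625 for 6 libraries), a rule that chance meets in about 1 of 20 groups. Ifit2 was at 1.93 CPM in wild-type phagocytic pool 2, where the other 4 pools ran from 21.4 to 28.4 CPM. Ifit2 was also at 192 CPM in Apoe-/- phagocytic pool 4, where the other 5 ran from 19.8 to 81.1 CPM. Oasl2 was at 0 CPM in Apoe-/- non-phagocytic pool 2, where the others ran from 69.7 to 103 CPM, and that library had the largest share of satellite-like reads, 51.7%.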

How the results depend on the processing

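The count of members called was 0 in the genotype contrast of non-phagocytic cells and in the interaction under every alternative and every omission of a library. In phagocytic cells it was 0 for genotype except without a filter on low counts, where it was 2 (Ifit2 and Ifit3). For the sort in the wild type it was 0 except for 1 without that filter (Bst2) and 4 with a replicate block (Bst2, Oas1a, Ifitm3 and Zbp1). For the sort in Apoe-/- cells (1 as reported) it was 3 with DESeq2 and with either covariate (Y-linked reads or the share of satellite-like reads; Bst2, Irf7 and Oas1a), 2 with length-scaled counts, 7 with no filter, 4 when only the groups compared were fitted, 9 with a replicate block, and 1 to 3 when 1 library was left out. The cause was not tested. Over the alternatives the count of all genes called ran from 2 to 96 for genotype in phagocytic cells (4 as reported), 2 to 16 in non-phagocytic cells (2), 18 to 135 for the sort in the wild type (26), 16 to 255 in Apoe-/- cells (58) and 0 to 17 for the interaction (0). Equal pool numbers were not treated as pairs: the 11 same-numbered pairs of sorts had correlations of 0.04 to 0.42, 8 of 11 above 0.1, 7 of 11 were best correlated with their own number, and Y-linked reads were near 0 in both or in neither of each pair; those of genotypes ran from -0.17 to 0.21. The alternatives without the 2 libraries of over 40% satellite-like reads, and within pools with or without Y-linked reads, were chosen after seeing the data. No member's called direction reversed. A library with 0 reads occurred for 4 members, among them Oasl2, which had a mean of 50.7 TPM. The members of lowest mean TPM (Oas3, Ifi44 and Samd9l) had reads in each library. The part of read depth was not tested.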
